A study of Mus musculus with 8 samples.

Results

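Ferlins are large membrane-anchored proteins with several C2 domains, folds that bind membranes and often calcium, and they act where vesicles fuse with membranes. Otoferlin (Otof) is best known as the calcium sensor for transmitter release in the inner hair cells of the ear, dysferlin (Dysf) and myoferlin (Myof) for resealing and fusing membranes in muscle, and the product of Fer1l4 is little studied. In brain tissue such transcripts can come from neurons, glia, vessels or the membranes around them. The genes described were Otof, Dysf, Myof and Fer1l4, taken by name, 4 of the 40659 gene identifiers in the count table. The remaining ferlin genes, Fer1l5 and Fer1l6, were in the table too, which makes 6 in all. Otof had been singled out from the comparison between the groups of these same mice, so it was selected on its count in these 8 libraries, while the others were added by family name. Its group difference is therefore a description and carries no test.

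PolyA-RNA was sequenced from the whole hippocampus of 8 male C57BL/6JRj mice. Each had received a recombinant adeno-associated virus in the dorsal and ventral hippocampus at 7 to 8 weeks of age, carrying either a control hairpin (hpCTL, n = 4) or a hairpin that makes miR-708-5p (hp708, n = 4). The construct was driven by the human synapsin promoter, which is active in neurons, whereas the libraries hold RNA of all cell types, and the hippocampi were taken 4 weeks later, at a labelled age of 12 to 13 weeks. The comparison asks which hippocampal transcripts change when the microRNA is raised, and the control mice carry surgery and virus as well. Total counts ran from 22606824 to 28462428 per mouse. The gene Mir708 had 0 counts in all 8 libraries, so the counts could not check the overexpression. The library labelled hp708 replicate 1 has a conflicting record, since its mouse appears as hpCTL in published source data, and results that rest on it are given with and without it. Markers of hippocampal neurons were present in every library. In counts scaled to a common library size (CPM, with library sizes normalized by the TMM method), Wfs1 (CA1) ran from 88.7 to 139 CPM, Cpne4 (CA3) from 88.5 to 122 CPM and Prox1 (dentate gyrus) from 55.5 to 121 CPM. The hippocampi also held tissue from outside the neuronal layers, with a summed choroid plexus marker level between 52.4 and 4390 CPM.

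A microRNA is known to lower transcripts mainly through short matches to its seed, bases 2 to 8, in the 3'UTR. The mature sequence from RefSeq is shown first, with the seed in capitals, followed by windows of the ferlin transcripts (GRCm39) that hold the match AGCTCCT on the transcript strand, or the 8mer AGCTCCTA, with the match in capitals. These 4 windows are shown because they are the matches in a 3'UTR of Otof, Dysf and Myof, and the match in Fer1l4, which has none in its 3'UTR.
mmu-miR-708-5p: aAGGAGCUuacaaucuagcuggg
Otof, chr5:30525213-30525220, minus strand: ctacatggtcaagaAGCTCCTA
Dysf, chr6:84096558-84096564, plus strand: gcttggtccatgaggAGCTCCT
Myof, chr19:37974104-37974110, minus strand: atctgtatccattctAGCTCCT
Fer1l4, chr2:155881013-155881019, minus strand: tggtgctggctaagaAGCTCCT

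Otof (ENSMUSG00000062372, chr5:30524406-30619324 of GRCm39, minus strand, 48 merged exons) held an 8mer. It lay in the 3'UTR of 2 of the 5 annotated coding transcripts, 187 bases past the stop codon in the first of them, and in the coding sequence of 1. A 7-base match in the coding sequence was present in 5 of 5 transcripts. Dysf (ENSMUSG00000033788, chr6:83985345-84188042, plus strand, 65 merged exons) had its 3'UTR match in only 1 of 16 coding transcripts, 3295 bases past the stop codon. It held further matches in coding sequence (3) and 5'UTRs (2), and a 5'UTR match in 6 of 16 transcripts was an 8mer. Myof (ENSMUSG00000048612, chr19:37887484-38032048, minus strand, 57 merged exons) had its 3'UTR match in 1 of 13 coding transcripts, and its longest 3'UTR of 693 bases held none. A further 7-base match lay in the coding sequence of 1 of 13. Fer1l4 (ENSMUSG00000013338, chr2:155861059-155894867, minus strand, 43 merged exons) had a match in coding sequence. For comparison, 26.5% of the 14808 tested genes with an annotated 3'UTR held a 7-base match (AGCTCCT or GCTCCTA, transcript strand only) or an 8mer in the longest one, and 3.48% held an 8mer. Which transcript forms the hippocampus makes cannot be read from counts per gene, and a match is a run of letters, not a shown site.

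Otof was on average lower and far more scattered in hp708 than in hpCTL. The CPM values of hpCTL replicates 1 to 4 were 9.57, 10.8, 8.49 and 11. In hp708 replicates 1 to 4 it was 15.9, 4.83, 8.57 and 2.31. The control mice lay close together, whereas the hp708 mice included both the highest and the lowest of all 8 libraries, and the groups overlapped. The raw counts behind the extremes were 440 in hp708 replicate 1 (95% exact Poisson interval 400 to 483) and 56 in hp708 replicate 4 (42.3 to 72.7). The intervals cover counting error only, and both libraries were picked as the extremes of the 8. The means were 9.96 ± 1.17 CPM in hpCTL and 7.91 ± 5.94 CPM in hp708 (SD, n = 4 each). Without hp708 replicate 1 the hp708 mean was 5.24 ± 3.15 CPM (SD, n = 3). In a whole-tissue library, fewer cells of a type and less RNA per cell cannot be told apart.

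**Figure D1:**
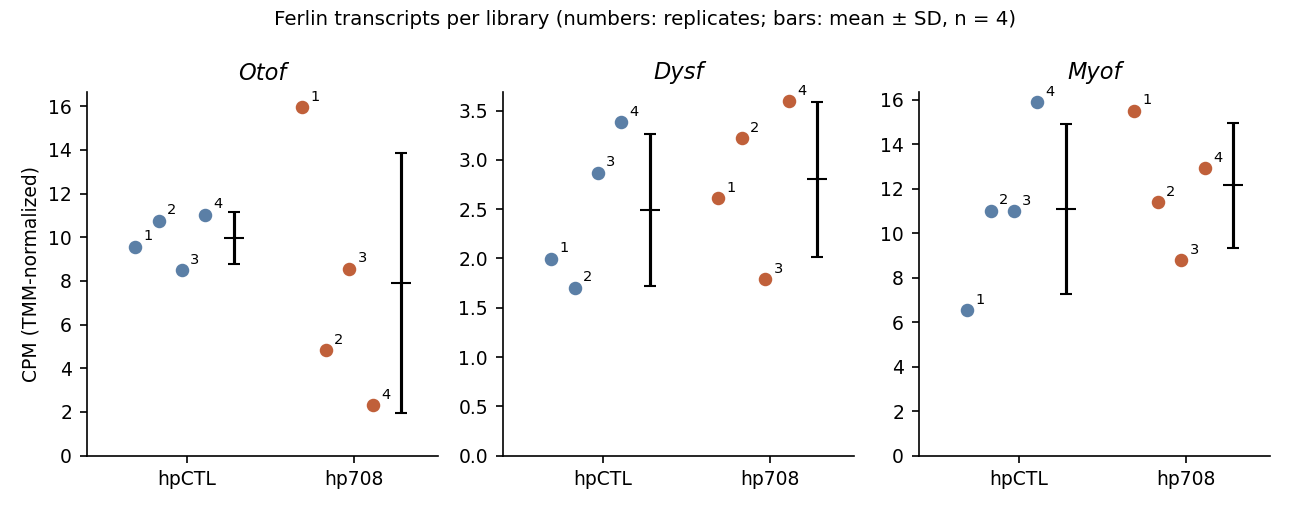
CPM of Otof, Dysf and Myof (vertical axes, from 0) in each of the 8 libraries, hpCTL in blue and hp708 in orange, with the replicate number beside each point and the mean ± SD (n = 4) as a bar. Otof stays between 8.49 and 11 CPM in hpCTL and runs from 2.31 to 15.9 CPM in hp708, while the groups overlap for all 3 genes.

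The fitted log2 fold change of Otof, hp708 over hpCTL, was -0.26 (standard error 0.27) in edgeR's model of all 17252 tested genes with 3 surrogate variables, which stand for unknown variation between libraries. The plain difference of mean log2 CPM was -0.65. The estimate turned on which mice were included. It became -1.34 without hp708 replicate 1 and 0.09 without hp708 replicate 4, and it was -1.04 with hp708 replicate 1 counted as hpCTL. It was also -0.97 when genes were kept only with at least 10 counts in every library, and -0.715 with surrogate variables from normalized counts. Of the hp708 mice, replicates 2 and 4 were below every control mouse, whereas replicate 3, at 8.57 CPM, lay just above hpCTL replicate 3.

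The spread itself was set beside that of genes of like abundance, as a description only, since Otof had been selected on these same libraries. The SD of log2 CPM of Otof was 0.17 in hpCTL and 1.17 in hp708. Of the 1756 tested genes whose mean log2 CPM lay within 0.5 of its own, 58.5% had a larger SD among the control mice, and 1.65% had a larger SD among the hp708 mice. The median SD of these genes was 0.20 in hpCTL and 0.23 in hp708. Without hp708 replicate 1, the SD of Otof among the remaining 3 hp708 mice was 0.93, which 3.36% of these genes exceeded. Nothing is drawn from this ranking about Otof beyond these 8 mice.

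The level of Otof was compared with 20 marker lists of regions and cell types, and the highest r over the 8 libraries belonged to lists of tissue beside the hippocampal layers. The mean log2 CPM of 6 subiculum markers was 3.37, 3.54, 3.62 and 3.43 in hpCTL replicates 1 to 4 and 3.56, 2.86, 2.87 and 2.66 in hp708 replicates 1 to 4. By this mean, hp708 replicates 2, 3 and 4 were below every control mouse. By the sum of CPM, which abundant markers lead, the list was at 107, 138, 147 and 167 in hpCTL and 150, 95.1, 109 and 112 in hp708, so replicates 3 and 4 of hp708 were above hpCTL replicate 1. Of the 6 markers, 5 had a lower mean CPM in hp708, Cbln4 did not, and none was at 0 in any library. The list split in hp708 replicate 4. Nts, Gpr101 and Slc17a6 were at their lowest of the 8 libraries there (1.53, 2.89 and 4.83 CPM). Fn1, Cbln4 and Ly6g6e, at 90.5, 9.13 and 3.14 CPM, lay within the range of the control mice. Gpr101 was at its highest, 14 CPM, in hp708 replicate 3. Across the 8 libraries Pearson's r of Otof with the list was 0.83 (Spearman's rho 0.62), 0.43 without hp708 replicates 2 and 4, the 2 libraries farthest from the median of Otof, and 0.80 without hp708 replicate 1.

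For 6 markers of upper cortical layers, r with Otof was 0.78 over the 8 libraries, 0.51 without hp708 replicates 2 and 4 and 0.76 without hp708 replicate 1. Their list mean was 4.37 to 4.76 log2 CPM in hpCTL, and it was lowest at 4.10 in hp708 replicate 4, the mouse with the least Otof. Their summed level was 158 to 209 CPM in hpCTL and 136 to 209 CPM in hp708, with 4 of 6 lower on average in hp708 and none at 0. For 6 markers of deep cortical layers, these r were 0.77, 0.50 and 0.70. All 6 of those were lower on average in hp708, with sums of 316 to 342 CPM in hpCTL and 270 to 332 CPM in hp708. With CA1, r was 0.47 over the 8 libraries (Spearman's rho 0.76), 0.65 without hp708 replicates 2 and 4 and 0.38 without hp708 replicate 1. With the dentate gyrus, it was -0.36 (rho -0.76), -0.77 and -0.17, and with CA3 -0.11 (rho -0.19), 0.18 and -0.23. Which lists moved most with Otof thus depended on the libraries, and without hp708 replicates 2 and 4 the r of CA1 and, in size, of the dentate gyrus were above those of the subiculum and both cortical lists. In the same way r with astrocytes was -0.75 over the 8 libraries, 0.32 without these 2 and -0.83 without hp708 replicate 1, the largest in size of the 20 lists in that set. Microglia gave -0.66, -0.51 and -0.52, and oligodendrocytes -0.62, -0.27 and -0.58. In the same 3 sets, r with mural cells was 0.17, 0.85 and -0.14, with meningeal fibroblasts 0.38, 0.80 and 0.13, and with choroid plexus 0.27, 0.78 and 0.10. These correlations describe 8 points that share library preparation. When the subiculum list replaced the surrogate variables in the model, the log2 fold change of Otof became 0.53. The part of tissue composition in the Otof difference was not tested.

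**Figure D2:**
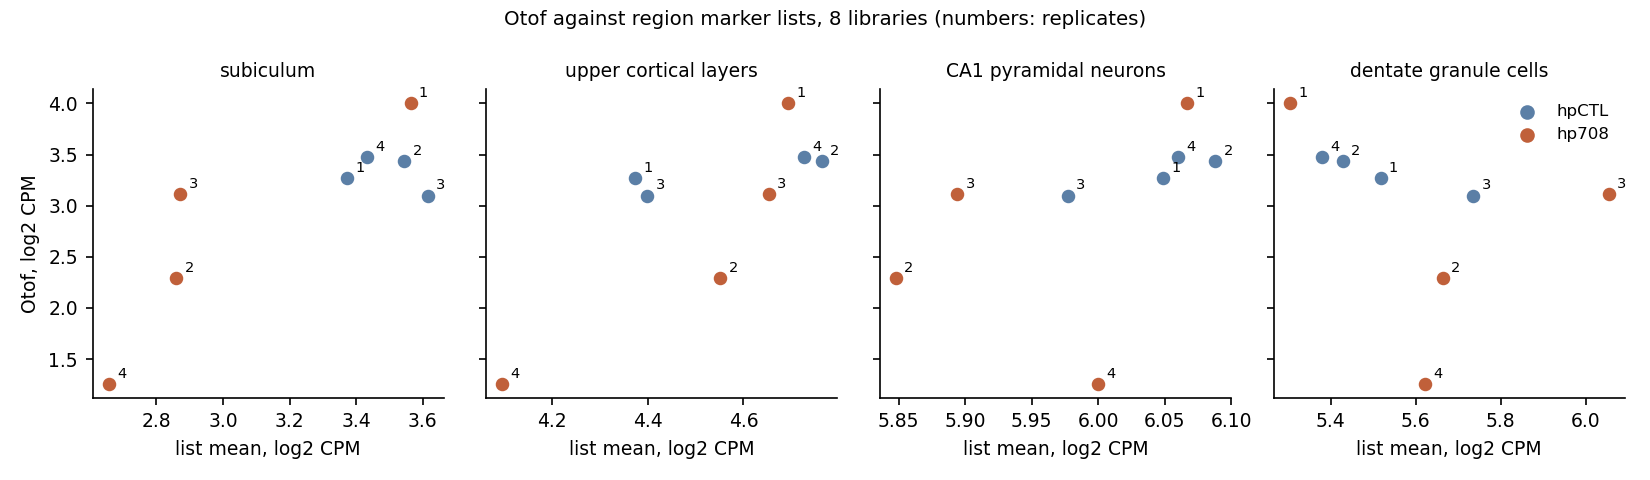
Otof (vertical axis, log2 CPM) against the mean log2 CPM of marker lists for the subiculum, upper cortical layers, CA1 and the dentate gyrus (horizontal axes) in 8 libraries, hpCTL in blue and hp708 in orange, with replicate numbers. Replicates 2, 3 and 4 of hp708 lie at the low end of the subiculum list, and hp708 replicate 4 is lowest in Otof, in the subiculum list and in the upper cortical list.

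Genes most like Otof, and those most like Dysf and Myof below, were picked by the highest Pearson's r among 17252 tested genes. A high r or rho over these libraries follows largely from that choice and was not tested. The 4 genes named here for Otof had a similar order of mice over the 8 libraries, with Spearman's rho of 0.95 to 0.98. Pearson's r of log2 CPM with Otof was high for Tmem145, a membrane protein gene (0.99), Smyd3, a lysine methyltransferase gene (0.98), Sparcl1, which encodes the secreted matrix protein hevin (0.98), and Zfp57, a zinc finger gene known for keeping imprints (0.97). Without the 2 libraries farthest from the median of Otof, hp708 replicates 4 and 2, r was 0.83 to 0.99, and without hp708 replicate 1 it was 0.96 to 0.99. Their swings were smaller than that of Otof. Tmem145 had 25.4, 25.8, 25.2 and 28.1 CPM in hpCTL and 29.2, 21.1, 24.3 and 15.3 CPM in hp708, with its extremes in the same mice as Otof. Zfp57 had 7.32, 9.49, 7.3 and 8.97 CPM in hpCTL and 10, 6.17, 8.1 and 4.46 CPM in hp708. The change in Sparcl1, the most abundant of these, was small in proportion. Sparcl1 had 1510, 1520, 1500 and 1540 CPM in hpCTL and 1580, 1350, 1490 and 1300 CPM in hp708. In all, 127 tested genes (0.736%) had r above 0.9 with Otof, against 32 (0.185%) for Dysf and 56 (0.325%) for Myof.

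Dysf was low, and its difference between the groups was small against the spread of the mice. Its 4 control mice had 2, 1.71, 2.87 and 3.38 CPM, from 56, 39, 70 and 90 counts, and its 4 hp708 mice had 2.61, 3.22, 1.79 and 3.59 CPM, from 72, 74, 42 and 87 counts. Both groups covered nearly the same range, with means of 2.49 ± 0.773 and 2.80 ± 0.787 CPM (SD, n = 4 each). The log2 fold change was 0.03 (standard error 0.28, 95% interval -0.62 to 0.68), with a false discovery rate (FDR) of 0.985 in edgeR's quasi-likelihood test adjusted over all 17252 genes. At an FDR below 0.05 this test called 1 gene (0.0058%), which was neither Dysf nor Myof. In all, 530 counts over 8 libraries stand behind the gene. The log2 fold change was 0.34 (standard error 0.19) without hp708 replicate 1, the furthest it moved with any 1 library left out and 3 surrogate variables. The direction turned without hpCTL replicate 2 (-0.11) and without hp708 replicate 4 (-0.095). Exons of Dysf overlap those of the lncRNA genes Gm15475 by 352 bases and Gm33024 by 640 bases on the opposite strand. Counting by strand is not stated. These genes had at most 8 and 0 counts in any library, which cannot show how reads in the shared bases were counted.

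The highest r of Dysf over the 8 libraries belonged to lists of non-neuronal cells. Its r was 0.87 with 6 astrocyte markers, 0.81 with 6 endothelial markers and 0.62 with 6 microglial markers. These became 0.84, 0.61 and 0.71 without hpCTL replicate 2 and hp708 replicate 3, the 2 libraries farthest from the median of Dysf, and 0.87, 0.82 and 0.87 without hp708 replicate 1. Other lists came forward without hpCTL replicate 2 and hp708 replicate 3, with r of 0.83 for the interferon response (0.55 over the 8 libraries), 0.73 for T cells (0.535) and -0.79 for interneurons (-0.35). The summed astrocyte level was 2460 to 2660 CPM in hpCTL and 2460 to 3120 CPM in hp708, with 3 of 6 markers lower on average in hp708. In hp708 replicate 4, where Dysf was highest, the astrocyte list split: Aqp4, Aldh1l1 and Gfap were at their highest of the 8 libraries there, while Gja1 and Aldoc were at their lowest. For endothelium the sums were 237 to 282 and 241 to 263 CPM, with 4 of 6 lower. Microglial markers summed to 628 to 841 CPM in hpCTL and 523 to 871 CPM in hp708, with 6 of 6 lower, and no marker of these lists was at 0. The genes most like Dysf were Gnmt, a glycine methyltransferase gene (r = 0.98), Galnt15, a glycosyltransferase gene (0.95), Islr, which encodes a secreted protein of stromal cells (0.95), Crip1, a LIM domain gene (0.95), and Tfe3, a transcription factor of lysosome genes (0.94). Gnmt, Galnt15 and Crip1 were low themselves, at 0.743 to 1.24, 3.02 to 6.24 and 3.32 to 5.96 CPM.

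Myof likewise gave no call. The control mice had 6.53, 11, 11 and 15.9 CPM, from 183 to 423 counts, and the hp708 mice 15.5, 11.4, 8.78 and 12.9 CPM, from 206 to 428 counts. The lowest and the highest mouse were both controls, and the hp708 mice lay between them. The means were 11.1 ± 3.82 and 12.2 ± 2.82 CPM (SD, n = 4 each), and the log2 fold change was 0.13 (standard error 0.13, 95% interval -0.17 to 0.42, FDR 0.863 in the same edgeR test). It was -0.04 without hp708 replicate 1 and -0.05 with that mouse counted as hpCTL. Here the controls were the more scattered group. The SD of log2 CPM was 0.52 in hpCTL, which 5.29% of 2062 genes of like abundance exceeded, and 0.34 in hp708, which 18.9% exceeded. Without hp708 replicate 1, the SD in hp708 was 0.28, which 29.5% exceeded, and the mean was 11 ± 2.1 CPM (SD, n = 3).

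The lists that moved most with Myof depended on the libraries. Over all 8, its highest positive r were 0.71 with 6 choroid plexus markers, 0.63 with 6 mural cell markers and 0.61 with 6 meningeal fibroblast markers, and r with 6 endothelial markers was 0.50. On the negative side, r with interneurons was -0.61 (0.44 without hpCTL replicates 1 and 4, -0.64 without hp708 replicate 1) and with dentate granule cells -0.48 (-0.85 and -0.34). Without hpCTL replicates 1 and 4, the 2 libraries farthest from the median of Myof, the 4 positive r were 0.47, 0.95, 0.69 and 0.22, and without hp708 replicate 1 they were 0.65, 0.52, 0.47 and 0.63. Without hp708 replicate 1 the interferon response list had the highest r, 0.90, against 0.40 with that library, followed by microglia at 0.78 against 0.22 and T cells at 0.72 against 0.27. The 8 interferon response genes summed to 97.1 to 246 CPM in hpCTL and 87.9 to 229 CPM in hp708, with 8 of 8 lower on average in hp708, and 5 T cell markers to 7.93 to 21.3 and 6.02 to 24.7 CPM, with 5 of 5 lower. Choroid plexus markers summed to 52.4, 1630, 149 and 2060 CPM in hpCTL and 2990, 4390, 105 and 173 CPM in hp708, with 0 of 6 lower on average in hp708. The control mouse with the least Myof, replicate 1, had the lowest of these sums. Fibroblast and mural cell markers spanned narrower ranges. Meningeal fibroblast markers summed to 139 to 298 CPM in hpCTL and 114 to 358 CPM in hp708, with 2 of 6 lower. Mural cell markers summed to 214 to 253 and 185 to 254 CPM, with 2 of 6 lower, and none of these markers was at 0. The genes most like Myof were Bicc1, an RNA-binding protein gene (r = 0.98), Piezo1, a stretch-activated channel gene (0.98), ENSMUSG00000100967, for which the annotation gives no symbol (0.98), Fastk, which encodes a kinase-like protein (0.97), and Sema3d, a secreted guidance cue gene (0.97). Piezo1 had 4.93, 9.84, 10.1 and 12.8 CPM in hpCTL and 12.3, 9.26, 7.03 and 11.5 CPM in hp708, with hpCTL replicate 1 lowest as for Myof. The part of dissection and cell makeup in the levels of Dysf and Myof was not tested.

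**Figure D3:**
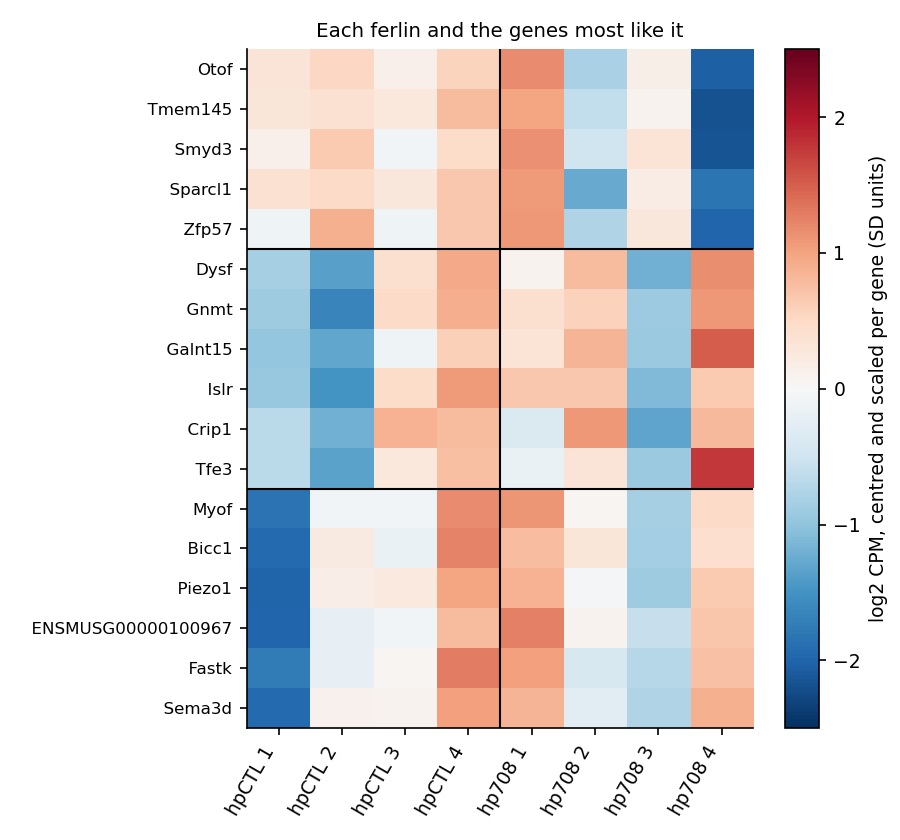
Log2 CPM of Otof, Dysf and Myof, each above the genes named as most like it (rows), in 8 libraries (columns), centered and scaled per gene in SD units, red for high and blue for low. The Otof block is lowest in hp708 replicate 4, the Dysf block is low in hpCTL replicate 2 and hp708 replicate 3, and the Myof block is lowest in hpCTL replicate 1.

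Among the 3 tested ferlins, r between Dysf and Myof was positive in the 3 sets of libraries examined, whereas the sign of r between Otof and each of them changed with the set. Over the 8 libraries r was 0.63 between Dysf and Myof, -0.50 between Otof and Dysf and 0.03 between Otof and Myof. Without the 2 libraries farthest from the median of the gene named first in each pair, these were 0.73, 0.25 and 0.65, and without hp708 replicate 1 they were 0.69, -0.585 and -0.24.

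Fer1l4 was at the edge of detection. Its counts were 1, 0, 2 and 0 in hpCTL and 0, 0, 0 and 1 in hp708, 4 reads in all. A count of 0 allows up to 3 counts (the one-sided 95% limit, for counting error only), which is 0.109 to 0.131 CPM in the 5 libraries without a read. Fer1l5 had 0, 1, 1 and 2 counts in hpCTL and 1, 1, 2 and 1 in hp708, and Fer1l6 had 2, 2, 2 and 4 in hpCTL and 6, 0, 1 and 6 in hp708. These 3 genes did not pass edgeR's filter on low counts and were not tested, so 3 of the 4 members entered the fit, and no group difference was detectable for them at this depth. Fer1l5 shares 19.6% of its exon bases with the highly expressed Lman2l, so its few reads are uncertain.

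Levels can be compared between the genes only per length. Per kilobase of merged exons, Otof averaged 1.09 ± 0.503 CPM, Myof 0.845 ± 0.229 and Dysf 0.230 ± 0.0645 (SD, n = 8), followed by Fer1l6 at 0.0140, Fer1l5 at 0.00720 and Fer1l4 at 0.00288. Of the 17162 tested genes with a known exon length, 26.2% had a lower level per kilobase than Otof, 22.4% than Myof and 7.08% than Dysf. Otof was above Myof in 6 of 8 libraries, the exceptions being hp708 replicates 2 and 4, and their ranges overlapped. Divided by the longest coding transcript instead, Myof (1.61) was above Otof (1.25), and Otof was the higher in only 2 of 8 libraries, so the order of these neighbors is not settled. The lowest Myof value, 0.474, was above the highest Dysf value, 0.313, whereas Otof in hp708 replicate 4, at 0.283, fell within the range of Dysf. Dysf lay below both on either scale in the mean (0.361 per longest transcript). In hpCTL alone Otof was at 1.22 ± 0.144, Myof at 0.806 ± 0.276 and Dysf at 0.216 ± 0.0674 CPM per kilobase of merged exons (SD, n = 4).

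**Figure D4:**
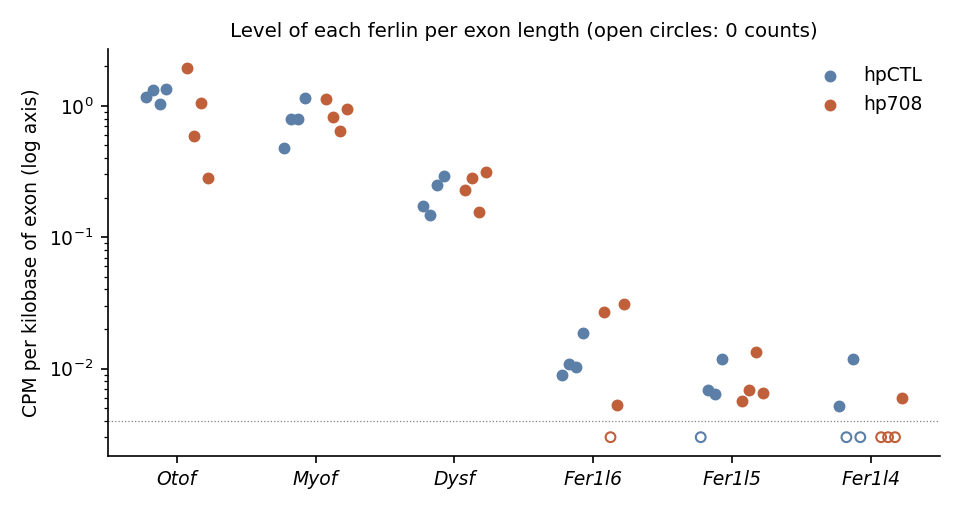
Level of the 6 ferlin genes in CPM per kilobase of merged exons (vertical log axis) in each library, hpCTL in blue and hp708 in orange; open circles under the dotted line stand for libraries with 0 counts. Otof, Myof and Dysf were read in all 8 libraries, whereas Fer1l4 had reads in 3 of them.

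The proteins that work with otoferlin were examined as a list of 12 genes: partners at the release site, its calcium channel and the machinery that inserts or recycles it. All 12 were tested and 0 had an unadjusted p below 0.05, where 1328 of all tested genes (7.7%) did. Their log2 fold changes ran from -0.08 to 0.13, with a median of 0.00, against -0.01 for all tested genes, and the lowest FDR was 0.667. The partners are named here for their role. Cacna1d, the L-type calcium channel that hair cells use, had 57.9, 71.1, 70.2 and 72.9 CPM in hpCTL and 75.6, 58.2, 86.3 and 74.3 CPM in hp708 (log2 fold change 0.13, standard error 0.06, FDR 0.667). The membrane fusion genes Snap25 (log2 fold change 0.01, standard error 0.04), Stx1a (-0.04, 0.08) and Vamp2 (-0.01, 0.05) had an FDR of at least 0.944. Myo6, a motor linked to otoferlin, was even across mice, at 117 to 121 CPM in hpCTL and 111 to 129 CPM in hp708. Slc17a8, the vesicular glutamate transporter of hair cells, was low, at 5.45 ± 0.609 CPM in hpCTL and 5.87 ± 2.21 CPM in hp708 (SD, n = 4 each), and peaked at 9 CPM in hp708 replicate 4, the mouse with the least Otof.

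Of 23 genes that act with dysferlin and myoferlin in membrane repair and trafficking, 0 were higher and 1 was lower at an unadjusted p below 0.05, where 2.82% and 4.87% of all tested genes were. The median log2 fold change was -0.04. The gene was Ehd4, an endosome-tubulating ATPase gene, with 10.2, 13.2, 14.8 and 15.7 CPM in hpCTL and 11.6, 16, 9.93 and 12.1 CPM in hp708. Its groups overlapped, and its log2 fold change of -0.24 (standard error 0.10, FDR 0.632 in edgeR's test) did not pass adjustment. The remaining 22, annexins, calpains and caveolins among them, ran from -0.35 to 0.34. Trim72, the muscle repair factor MG53, and Cav3, the muscle caveolin, were low in every mouse, at 0.554 to 1.12 and 0.123 to 0.643 CPM.

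At an unadjusted p below 0.05, 2.82% of all tested genes were higher and 4.87% lower. Of 25 other calcium sensors and tethers with C2 domains, 2 were higher and 0 lower at this cutoff. They were Unc13a, a vesicle priming factor (log2 fold change 0.20, standard error 0.05, FDR 0.440), and Syt7, a slow calcium sensor of release (0.18, 0.07, FDR 0.594). Unc13a had 242, 352, 338 and 329 CPM in hpCTL and 352, 293, 405 and 433 CPM in hp708. Syt7 had 299, 346, 330 and 312 CPM in hpCTL and 320, 329, 439 and 403 CPM in hp708. In both genes hp708 replicates 3 and 4 were above every control mouse, the other hp708 mice were not, and neither passed adjustment. The list ran from -0.39 (Unc13d) to 0.20, with a median of -0.05. No gene of the 3 lists had groups that did not overlap, a state found for 1.51% of all tested genes. The count of 3 genes at an unadjusted p below 0.05 over the 60 genes of these lists (5%, against 7.7% of all tested genes) became 14 (23.3%, against 12.2%) without hp708 replicate 1, 0 (against 2.98%) without hpCTL replicate 3, and 0 (against 1.81%) with no surrogate variables. With hp708 replicate 1 left out, Ehd4 had a log2 fold change of -0.13, Unc13a of 0.15 and Syt7 of 0.21, each with an FDR of at least 0.154 in edgeR's test.

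**Figure D5:**
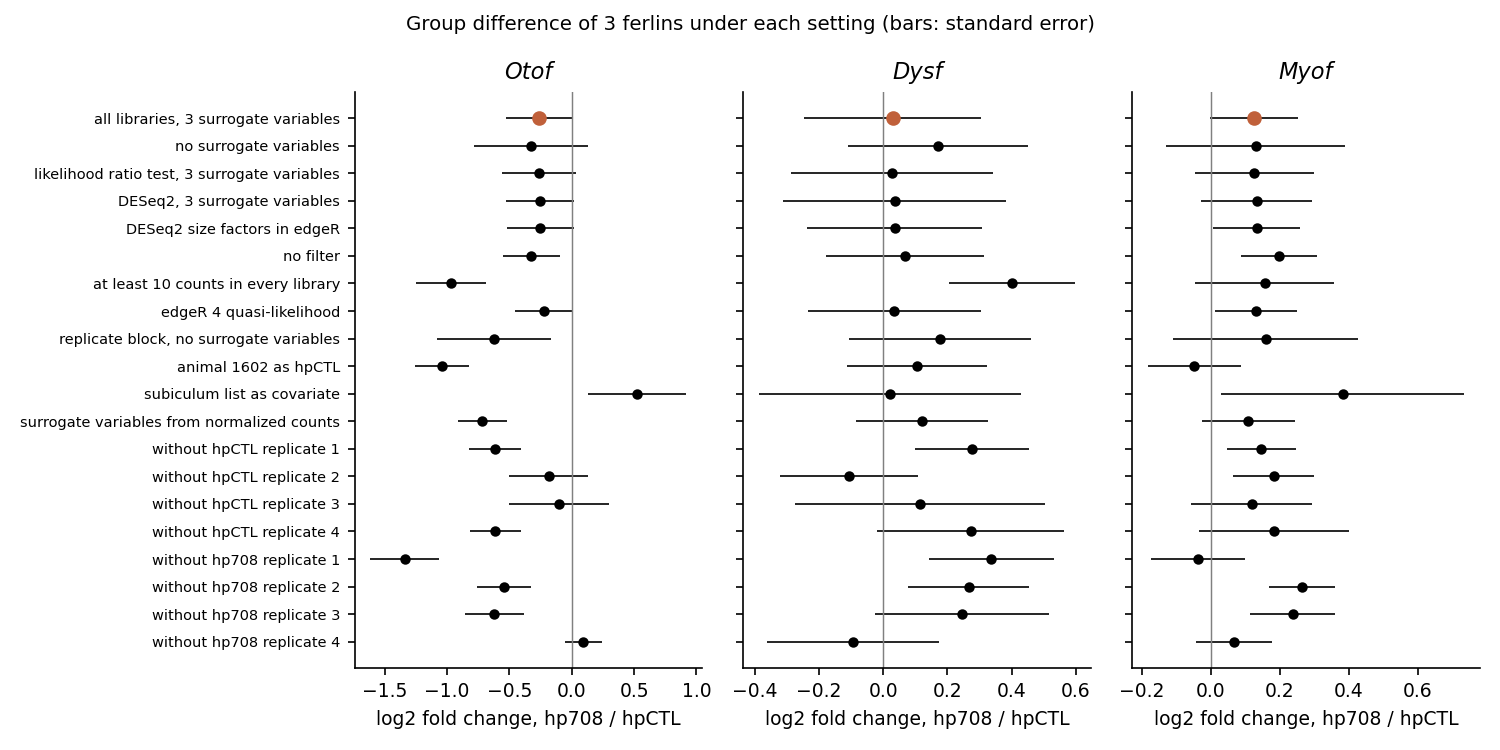
Log2 fold change, hp708 over hpCTL, of Otof, Dysf and Myof (horizontal axes, each with its own scale) under each way of processing the counts and without each library in turn (rows), with standard errors as bars and the reported fit in orange. Otof runs from -1.34 to 0.53, while the values of Dysf (-0.11 to 0.40) and Myof (-0.05 to 0.38) stay nearer to 0.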

How the data were processed

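Hippocampal polyA-RNA libraries of 4 hpCTL and 4 hp708 mice were grouped by their labels. The authors mapped reads to GRCm39 with STAR 2.7.8a, counted them per gene with featureCounts 1.6.4, and deposited raw counts without normalization. Strand and multi-mapping settings are not given in the sources used here. From these counts, filterByExpr left 17252 genes, which were fitted with edgeR 4.0.16 (R 4.3.3; quasi-likelihood as in edgeR 3, TMM, Benjamini-Hochberg) and 3 surrogate variables from svaseq (sva 3.50.0), and DESeq2 1.42.0 was an alternative. Log2 CPM had a prior count of 2. Symbols, exons and UTRs came from a later GENCODE release of the same build, which named 39637 identifiers, and the microRNA from RefSeq. Within groups, chi-square per degree of freedom over genes with at least 20 counts was 10 to 46.2, so no library was a copy of another. The functions were tested on simulated data.

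Named were the ferlins, up to 4 genes per partner list with an unadjusted p below 0.05, the 5 genes with the highest r to each tested ferlin, and Mir708; 1 of the 5 for Otof is not reported here. Partners named for their role, markers and list extremes were chosen after values were seen. Members and lists were chosen with earlier results of these data known. Alternatives changed the surrogate variables, test, tool, normalization, filter, block, group of animal 1602, libraries, transcript length and prior count.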

Additional observations from a re-analysis of the deposited data

Results flagged for a closer look

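In 4 of 78 groups of 4 libraries that were checked, 1 library stood far from the other 3 by Dixon's criterion, which chance gives in about 5% of groups. The deep cortical marker list had a mean of 5.09 log2 CPM in the library labelled hp708 replicate 1 (4.71 to 4.77 in the other hp708 libraries), which was also the library with the most Otof. The thalamus list was at 3.66 log2 CPM in hp708 replicate 2 (3.05 to 3.10 in the others), and the CA3 list at 4.79 log2 CPM in hpCTL replicate 1 (4.52 to 4.56 in the others), the library with the least Myof. Islr, among the genes most like Dysf, had 17.5 CPM in hp708 replicate 3 (25.5 to 25.7 in the others).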

How the results depend on the processing

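Otof had been selected on these same libraries, so a kept direction is a description only. It kept its direction in 10 of 11 alternatives that used all libraries, from -1.04 upward. It turned to 0.53 (standard error 0.39) with the subiculum list as covariate. It was -0.97 with at least 10 counts in every library and -0.715 with surrogate variables from normalized counts, an alternative added after the data were seen. With 1 library left out it ran from -1.34 to 0.093 with surrogate variables and from -0.93 to -0.02 without them. Dysf kept its direction in 11 of 11 (0.02 to 0.40), with -0.11 to 0.34 and 0.03 to 0.35 when 1 library was left out. Myof kept it in 10 of 11, with -0.047 for animal 1602 as hpCTL, and gave -0.038 to 0.26 with and -0.051 to 0.36 without surrogate variables when 1 library was left out (turned also at -0.004, without hp708 replicate 1). Neither gene was called under any of these, the lowest FDR being 0.56 for Dysf and 0.351 for Myof.

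The count of 1 gene at an FDR below 0.05 became 127 with the likelihood ratio test, 96 with DESeq2, 29 with animal 1602 as hpCTL, 12 without the filter and 3 with edgeR 4. It became 0 in edgeR's test when surrogate variables were left out (312 genes had an unadjusted p below 0.05), with at least 10 counts (907), with the subiculum list (202) and with surrogate variables from normalized counts (2288). With 1 library left out it ran from 0 (without hpCTL replicate 3, 520 genes at an unadjusted p below 0.05) to 56 (without hp708 replicate 1), and it was 0 in each such fit without surrogate variables (240 to 596). The 3 list genes at an unadjusted p below 0.05 were 5% of the lists, against 7.7% of all tested genes. They became 0 without surrogate variables (against 1.81%) and 0 with the subiculum list (against 1.17%). They became 5 with surrogate variables from normalized counts (8.33%, against 13.3%) and 7 of 59 with at least 10 counts (11.9%, against 5.72%). With animal 1602 as hpCTL they became 10 (16.7%, against 11.9%, or 2099 genes). With 1 library left out they ran from 0 (against 2.98%, without hpCTL replicate 3) to 14 without hp708 replicate 1. The 14 (23.3%) stood beside 12.2% of all tested genes, or 2119. In such fits without surrogate variables they ran from 0 to 3 (5%, against 3.42%, without hp708 replicate 1). The cause of these shifts was not tested. Same-numbered mice did not deviate together (r -0.041 to 0.018), and the labels state no pairing. These r cannot exclude a shared litter or day. With the replicate block in place of the surrogate variables, Otof was at -0.62, Dysf at 0.18 and Myof at 0.16. That fit had 1 gene at an FDR below 0.05. It had 1 list gene at an unadjusted p below 0.05 (1.67%, against 1.58% of all tested genes). Per kilobase of the longest coding transcript, Dysf moved to 0.361 and Myof to 1.61 CPM. The genes most like each ferlin were the same 5 of 5 with a prior count of 0.5.

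Depth limits Fer1l4, Fer1l5 and Fer1l6, which could not be compared. For Dysf, whose interval reaches changes of 0.68 on the log2 scale, the SD between mice was 0.44 and 0.43 log2, beside a counting error of 10.5 to 16% per library. With 4 mice a group, and no statement of separate litters or days, the spread covers these mice only.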
